A study of Arabidopsis thaliana with 12 samples.

Results

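The histone genes of Arabidopsis were followed through RNA-seq libraries of wild-type (WT) seedlings and of 3 mutants in nuclear RNA processing. Members were the 38 loci of a list of genes for the histones H1, H2A, H2B, H3 and H4, looked up by locus among the 32833 genes of the count table, and all 38 were found. By variant they were 8 H4 genes, 5 H3.1 genes, 4 canonical H2A genes and 7 H2B genes, forming 24 replication-dependent genes, then 3 H3.3, 2 H2A.X, 3 H2A.W and 3 H2A.Z genes, forming 11 replacement variants, and 3 genes of the linker histone H1. Poly(A) RNA was sequenced from whole seedlings, 16 days old, grown under constant light on MS medium, in 3 libraries each of *se-1*, *cbp20*, *cbp80* and WT. *se-1* is a hypomorphic allele of *SERRATE* (*SE*), whose null alleles are lethal. *CBP20* and *CBP80* encode the subunits of the nuclear cap-binding complex (CBC), with which SE acts on new transcripts. The study's methods give the *cbp20* line as *cbp20-1*, the sources used here name no allele for *cbp80*, and all plants were in the Columbia (Col-0) background. Seedlings were kept on ice while they were collected, before freezing. No treatment was given, and nothing in the labels says how many seedlings were pooled or whether libraries came from separate cultures, so that p-values measure only the spread between these libraries.

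Nucleosomes hold a pair of each core histone, H2A, H2B, H3 and H4, with DNA wrapped around them, and H1 binds where the DNA enters and leaves. Replication-dependent histones such as H3.1 are made in bulk in S phase and laid down behind the replication fork by the chaperone CAF-1, while replacement variants are exchanged into chromatin at other times: H3.3 through HIRA at transcribed genes, H2A.Z through the SWR1 complex, H2A.W in heterochromatin and H2A.X as the form marked at DNA breaks. In animals the replication-dependent mRNAs end in a stem-loop without poly(A), and the CBC together with ARS2, the animal counterpart of SE, acts in forming that end. Plant histone mRNAs are polyadenylated, so libraries of poly(A) RNA measure them. A comparison of the replication-dependent with the replacement genes over these genotypes asks whether reduced SE or a mutated CBC subunit moved both kinds of transcript alike.

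The H4, H3.1 and H3.3 genes code for very few different proteins, whereas each gene of the other variants codes for its own. In the RefSeq annotation, all 8 H4 genes encode 1 protein of 103 residues, all 5 H3.1 genes 1 protein of 136 residues and all 3 H3.3 genes 1 protein of 136 residues, which differs from that of H3.1 at 4 residues. Their coding DNA was 78.8% to 98.1% identical among H4 genes, 80.3% to 89.5% among H3.1 genes and 74% to 80.3% between H3.1 and H3.3 genes. Even so, exact sequence tells most of them apart. Of the windows of 150 bases, the read length, in the exons of each member, none occurred elsewhere in the genome for 36 of the 38 genes. For the H4 genes *AT3G45930* and *AT3G46320* the share was 2.02% and 2.22%. Only exact matches within an exon were searched. Whether reads with mismatches, or reads across introns, were placed on the right copy was not tested. Introns ran with the classes. No transcript with an intron was annotated for 17 of the 24 replication-dependent genes, among them every H3.1 and H2B gene, whereas all 11 replacement genes and all 3 H1 genes had 1 to 4 introns.

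Plant histone promoters are known for a short element, the octamer CGCGGATC, which is shown here because it is rare elsewhere and stands before several members whose levels are compared below. It was searched on both strands, as CGCGGATC or GATCCGCG, in the 300 bases from 250 before to 50 after each annotated start. The octamer occurred in 45 of all 32546 such windows (0.138%), and 10 of these 45 belonged to members, 7 replication-dependent genes, 2 replacement genes and 1 H1 gene. The hexamer ACGTCA, another element of histone promoters, was in 11 of 38 members, against 8.74% of all windows, and an E2F form (TTTCCCGC, TTTGGCGC, TTTGCCGC or TTTCGCGC) in 3 of 38, against 1.63%. The letters TATAAA were in 21 of 38, against 50.6%. None of the 12 octamers overlapped another of these motifs. They are printed with 8 bases on either side, 5′ to 3′ on the strand of the gene (build TAIR10), the octamer in capitals:
AT1G07660 (H4), chr1:2368699-2368722, plus strand, octamer 126 bases before the start: agatttcaCGCGGATCgcaatctt
AT5G59690 (H4), chr5:24051395-24051418, plus strand, octamer 71 bases before the start: tgccatcaCGCGGATCactaatat
AT1G09200 (H3.1), chr1:2972409-2972432, minus strand, octamer 90 bases before the start: taccttcaCGCGGATCagtgttag
AT1G09200 (H3.1), chr1:2972338-2972361, minus strand, octamer 19 bases before the start: tgatttcaCGCGGATCgtgataga
AT5G10400 (H3.1), chr5:3271062-3271085, minus strand, octamer 120 bases before the start: acacaggaCGCGGATCgtaaagat
AT5G65360 (H3.1), chr5:26120692-26120715, minus strand, octamer 126 bases before the start: agacgtgaCGCGGATCactaaaat
AT4G40040 (H3.3), chr4:18558947-18558970, minus strand, octamer 17 bases before the start: atttcagcGATCCGCGacggtttg
HTA10 (H2A), chr1:18926729-18926752, plus strand, octamer 74 bases before the start: cactctgaCGCGGATCctgaatct
HTA10 (H2A), chr1:18926793-18926816, plus strand, octamer 10 bases before the start: taaacagcGATCCGCGtagtttct
HTA13 (H2A), chr3:7229314-7229337, plus strand, octamer 68 bases before the start: gtaacatcGATCCGCGtgattgtt
HTA6 (H2A.W), chr5:24116321-24116344, minus strand, octamer 116 bases before the start: catagtcaCGCGGATCgtgcttta
AT1G06760 (H1), chr1:2077780-2077803, minus strand, octamer 28 bases before the start: agagtagcGATCCGCGtagtcatt
A match is a description of letters and not of a bound factor. In 8 of 12 cases the octamer pointed along the gene, and it lay between 10 and 126 bases before the start. *AT1G09200* (H3.1) and *HTA10* (H2A) had it at 2 places each.

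**Figure D1:**
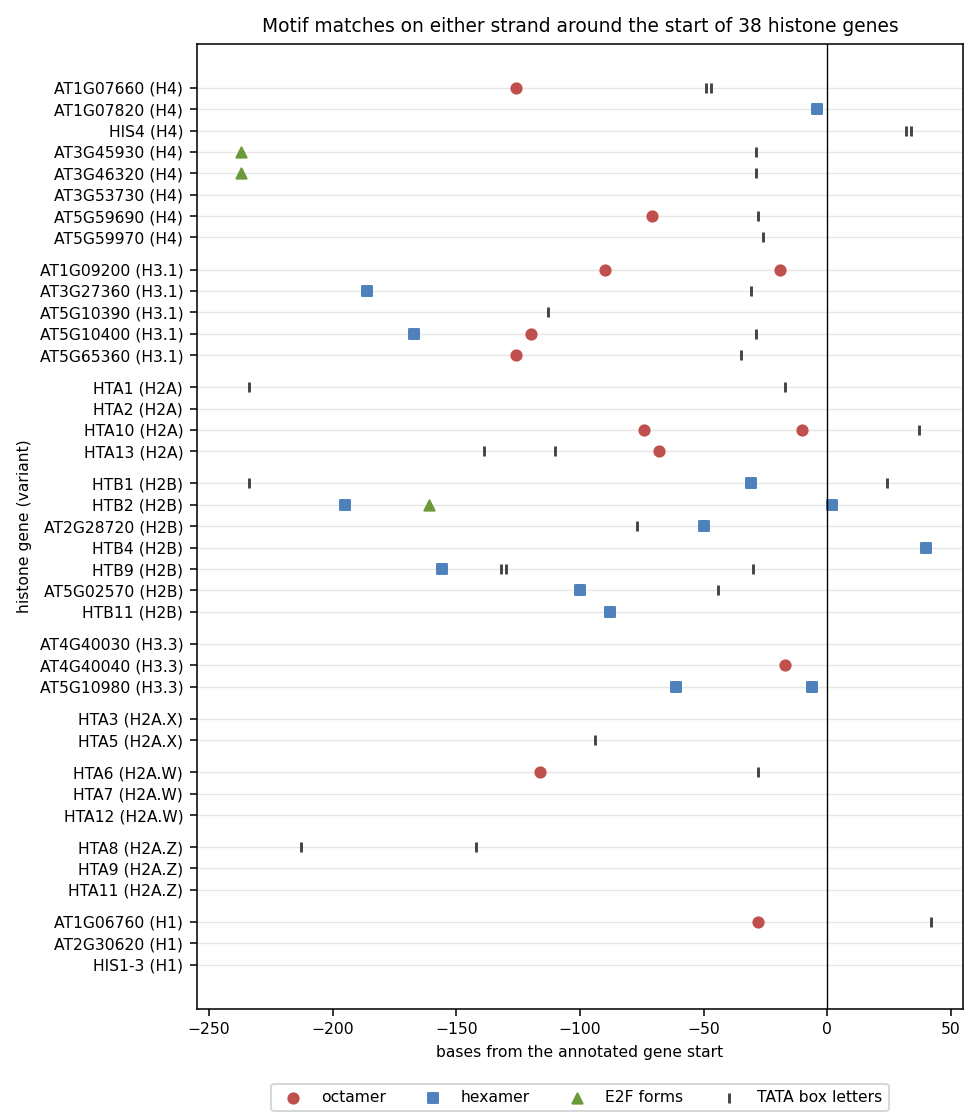
Position of motif matches around the annotated start of the 38 histone genes, in bases on the x axis, with 1 row per gene grouped by variant. Red circles mark the octamer, blue squares the hexamer, green triangles the E2F forms and grey bars the letters TATAAA; the 12 octamers lie before the start in 10 genes.

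Per library, 18565569 to 27068656 read pairs were counted on genes, and 0.27% to 0.305% of them fell on members. Values are given as CPM, the read pairs of a gene per 1000000 counted, after TMM scaling of the 12 libraries, and levels of different genes are compared only as CPM per kb of exon. By edgeR, *CBP20* RNA was lower in *cbp20* than in WT (log2 fold change -1.55, adjusted p = 5.37e-08), while *SE* RNA in *se-1* (-0.06, adjusted p = 0.491) and *CBP80* RNA in *cbp80* (-0.16, adjusted p = 0.174) did not pass the test, so that those transcripts do not check these labels. The seedlings expressed genes of leaf and root. The sum of 3 shoot genes ran from 30618 to 32788 CPM in *se-1*, 28308 to 29459 CPM in *cbp20* and 29034 to 31592 CPM in *cbp80*, against 25105 to 26410.1 CPM in WT. Of these, *RBCS1A* and *RCA* were called higher in *se-1* and *cbp80*. *LHCB1.3*, the most abundant, was called in no mutant (log2 fold changes 0.06, 0.12 and -0.08 in *se-1*, *cbp20* and *cbp80*), and no shoot gene was called in *cbp20*. The sum of 3 root genes, led by *PYK10*, ran from 1650.5 to 1854 CPM in *se-1*, 2424 to 2695 CPM in *cbp20* and 2180.5 to 2343 CPM in *cbp80*, against 3062 to 3277 CPM in WT. *PYK10* was lower in all 3 mutants, whereas the root gene *SCR* was higher in all 3. Of 3 shoot meristem genes, only *STM* had enough counts for the test. It was called in no mutant, with log2 fold changes of -0.08, -0.15 and -0.05 in *se-1*, *cbp20* and *cbp80*. The 2 seed genes summed to at most 1.91 CPM in any library. The 2 flower genes summed to 1.16 to 2.03 CPM in *se-1*, 0.0737 to 0.268 CPM in *cbp20* and 0.31 to 0.512 CPM in *cbp80*, against 0.0454 to 0.143 CPM in WT, and *AP1* averaged 1.11 CPM in *se-1*, against 0.0158 CPM in WT. None of the markers was at 0 in all libraries. In whole seedlings, fewer cells of a type and less RNA per cell cannot be told apart, and the part of tissue makeup in the changes below was not tested.

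1 member could not be measured. The H2B gene *AT5G02570* (chromosome 5, 576655 to 577176, minus strand) lies with 100% of its exon bases inside an exon of *HTA12* on the other strand, read pairs that touched exons of more than 1 gene were left uncounted, and its count was 0 in every library. That 0 is the result of the counting rule and is not a measure of expression. The other 37 members passed the filter of 10 counts in 3 libraries and were tested in each comparison. Overlaps with other genes also cover part of the exons of *AT3G27360* (39.4%), *HTA3* (62.3%), *HTA12* (34.7%), *HTB9* (37.3%), *AT1G06760* (41.9%) and *HTA13* (11.9%), whose levels are therefore too low here.

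In all, 6 members were higher and 8 lower in *se-1* than in WT, 5 higher and 3 lower in *cbp20*, and 13 higher and 9 lower in *cbp80*, by the quasi-likelihood test of edgeR at a Benjamini-Hochberg adjusted p under 0.05 over all tested genes. Log2 fold changes are given with their approximate standard error after ±. As shares of 37, these were 16.2% and 21.6% in *se-1*, 13.5% and 8.11% in *cbp20* and 35.1% and 24.3% in *cbp80*. Of all tested genes, 17.6% were called higher and 16.2% lower in *se-1*, 10.2% and 9.48% in *cbp20*, and 20.1% and 18.6% in *cbp80*. The share of members called higher in *cbp80* stood furthest from that of all genes, and these shares are descriptions without a test. Counted by libraries instead, 12, 13 and 23 of 37 members had no overlap between the mutant and the WT libraries in *se-1*, *cbp20* and *cbp80*, against 46.3%, 35.7% and 49.8% of all tested genes. Changes were small: outside *HTA13* and the H2B gene *AT2G28720*, every called member stayed within -0.50 and 0.59 on the log2 scale. No member was called in opposite directions in different mutants. With libraries scaled by their size only, 1 member was higher and 12 lower in *se-1*, 4 and 4 in *cbp20*, and 9 and 14 in *cbp80*.

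By class, the counts were as follows. Among 23 tested replication-dependent genes, 6 rose and 3 fell in *se-1*, 5 rose and 2 fell in *cbp20*, and 11 rose and 4 fell in *cbp80*. Among 11 replacement genes, 0 rose and 4 fell in *se-1*, 0 rose and 1 fell in *cbp20*, and 2 rose and 4 fell in *cbp80*. For the replication-dependent genes these are 26.1%, 21.7% and 47.8% higher and 13%, 8.7% and 17.4% lower in *se-1*, *cbp20* and *cbp80*, and for the replacement genes 0%, 0% and 18.2% higher and 36.4%, 9.09% and 36.4% lower, to be read against the shares of all genes above. The share of the replication-dependent genes called lower was close to that of all genes in each mutant, and so was that of the replacement genes in *cbp20*. In the order *se-1*, *cbp20*, *cbp80*, the median log2 fold change of the replication-dependent genes was 0.05, 0.14 and 0.18, that of the replacement genes -0.08, -0.01 and -0.08, and that of all tested genes 0.00, 0.00 and -0.01. With libraries scaled by size only, the replication-dependent median in *se-1* was -0.03, when that of all tested genes was -0.09. Several calls in *se-1* and *cbp20* depended on single libraries, while 4 of 14 in *se-1* and 4 of 8 in *cbp20* held in each of 12 alternative fits. 1 member was higher in *se-1* without *se-1* replicate 3, 2 without WT replicate 2 and 3 without *se-1* replicate 1, and 5 were lower without *se-1* replicate 1 or 2 or WT replicate 1 or 2. Without WT replicate 3, 3 were higher in *cbp20*, and without *cbp20* replicate 1, 3 were higher and 1 lower in *cbp20*. Leaving out any 1 library of the *cbp80* comparison gave 10 to 12 higher and 9 to 11 lower members.

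**Figure D2:**
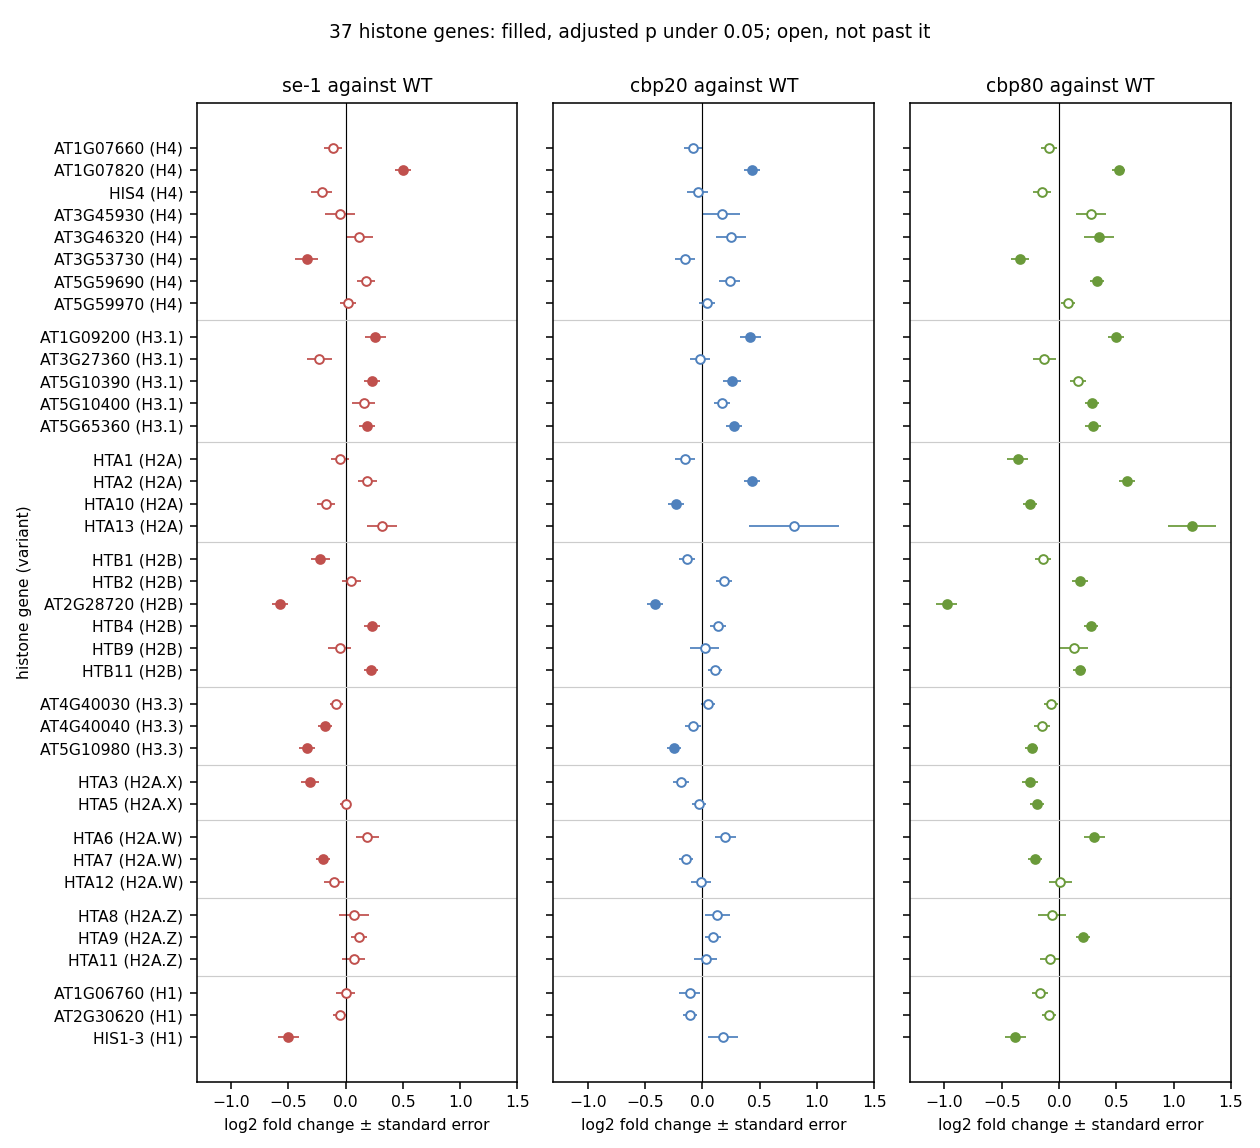
Log2 fold change of each of the 37 tested histone genes in *se-1*, *cbp20* and *cbp80* against WT (x axis), 1 row per gene grouped by variant. Bars are standard errors and filled points passed the adjusted p of 0.05; most points lie within 0.5 of 0, *AT2G28720* lies furthest left in each panel, and *HTA13* lies furthest right, with the widest bars, in *cbp20* and *cbp80*.

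5 members were called in the same direction in all 3 mutants, the H4 gene *AT1G07820* and the H3.1 genes *AT1G09200* and *AT5G65360* as higher, and the H3.3 gene *AT5G10980* and the H2B gene *AT2G28720* as lower. Of the 20312 genes tested in all 3 comparisons, 7.97% were higher in all 3 and 6.6% lower in all 3, so that 3 and 2 of 37 members (8.11% and 5.41%) are close to the background. The 3 comparisons share the WT libraries and are not independent.

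**Figure D3:**
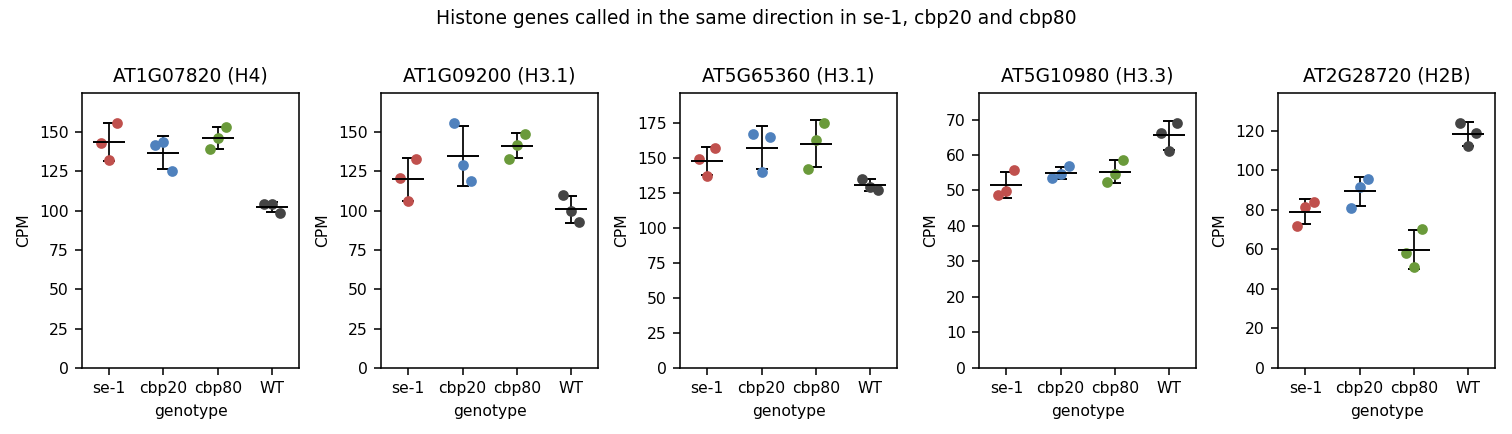
CPM in each library (points) of the 5 histone genes called in the same direction in *se-1*, *cbp20* and *cbp80*, with the mean and SD of 3 libraries per genotype. The *AT1G07820* libraries of all mutants lie at 125 to 156 CPM, above the WT libraries at 98.6 to 104 CPM, and the *AT2G28720* libraries at 50.8 to 95.5 CPM, below the WT libraries at 112 to 124 CPM.

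Histone H4 wraps DNA together with H3, and its 8 genes are all for 1 protein. Called higher and lower were 12.5% and 12.5% of them in *se-1*, 12.5% and 0% in *cbp20* and 37.5% and 12.5% in *cbp80*. Of all tested genes, the shares were 17.6% and 16.2% in *se-1*, 10.2% and 9.48% in *cbp20* and 20.1% and 18.6% in *cbp80*. In *se-1* and *cbp20* the H4 shares were thus near or below those of all genes. *AT1G07820* (chromosome 1, 2421089 to 2422066, minus strand, with 0 or 1 intron by transcript) was the most abundant H4 gene, with 104 CPM per kb in WT, and the one that rose in each mutant. It had 143, 132 and 156 CPM in *se-1*, 142, 144 and 125 CPM in *cbp20* and 139, 146 and 153 CPM in *cbp80*, against 104, 104 and 98.6 CPM in WT. Every mutant library lay above every WT library. The log2 fold change was 0.50 ± 0.07 (adjusted p = 0.000127) in *se-1*, 0.43 ± 0.07 (adjusted p = 0.000411) in *cbp20* and 0.52 ± 0.06 (adjusted p = 6.14e-06) in *cbp80*, from edgeR, and these calls held in each of 12 alternative fits. *AT3G53730* (chromosome 3, 19912385 to 19913515, minus strand, intronless) went the other way. It had 43.1, 38.8 and 54.1 CPM in *se-1*, 50.5, 59.3 and 45.9 CPM in *cbp20* and 47.3, 39.7 and 49.2 CPM in *cbp80*, against 59.3, 60.9 and 52.7 CPM in WT. In *cbp80* its libraries stayed below those of WT (log2 fold change -0.34, adjusted p = 0.00494 from edgeR), while in *se-1* the third library overlapped WT (log2 fold change -0.34, adjusted p = 0.0243 from edgeR) and the call was lost without *se-1* replicate 1 or 2 or WT replicate 1 or 2. In *cbp20* its log2 fold change of -0.15 did not pass the test.

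*AT5G59690*, an H4 gene with the octamer, passed the test in *cbp80*, where it rose to 71.2 ± 2.33 CPM, against 56.9 ± 2.58 CPM in WT (SD, n = 3), a log2 fold change of 0.33 ± 0.06 (adjusted p = 0.000482) from edgeR. *AT3G46320* was called higher in *cbp80* as well, but with overlapping libraries. It had 46.1, 39.2 and 49.4 CPM in *se-1*, 52.9, 39.6 and 55.9 CPM in *cbp20* and 43.6, 54.2 and 59.5 CPM in *cbp80*, against 45.1, 32.3 and 47.1 CPM in WT. Replicate 2 was the lowest of the WT libraries, and the call in *cbp80* (log2 fold change 0.35, adjusted p = 0.0431 from edgeR) held in 6 of 12 alternative fits and was lost without WT replicate 2, *cbp80* replicate 2 or *cbp80* replicate 3. The remaining H4 genes *AT1G07660*, *HIS4*, *AT3G45930* and *AT5G59970* had log2 fold changes between -0.21 and 0.28 and passed the test in no mutant. Summed over the 8 genes, H4 transcripts stood at 609.6, 530.4 and 617 CPM per kb in *se-1*, 661, 591 and 603 CPM per kb in *cbp20* and 604, 629 and 667 CPM per kb in *cbp80*, against 596, 520.3 and 550.2 CPM per kb in WT, so that only the *cbp80* libraries lay wholly above WT.

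H3.1 genes were called in 1 direction only. Of its 5 genes, which are all intronless, 3 (60%) rose in each mutant and none fell. The 3 were the same in *se-1* and *cbp20* but not in *cbp80*. Of all tested genes, 17.6% were higher and 16.2% lower in *se-1*, 10.2% and 9.48% in *cbp20*, and 20.1% and 18.6% in *cbp80*. *AT1G09200* (chromosome 1, 2971571 to 2972334, minus strand) rose most among the H3.1 genes. It had 121, 106 and 133 CPM in *se-1*, 156, 129 and 119 CPM in *cbp20* and 133, 142 and 149 CPM in *cbp80*, against 110.2, 99.5 and 92.8 CPM in WT. The log2 fold change was 0.50 ± 0.07 (adjusted p = 6.63e-05) in *cbp80* and 0.42 ± 0.09 (adjusted p = 0.00513) in *cbp20*, where the libraries did not overlap those of WT, and 0.26 ± 0.09 (adjusted p = 0.0399) in *se-1*, where they did, all from edgeR. The *se-1* call was lost without *se-1* replicate 1 or 3 or WT replicate 2 or 3. With libraries scaled by size only, none of the 3 H3.1 genes called in *se-1* passed the test.

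*AT5G65360* (chromosome 5, 26119859 to 26120581, minus strand) holds 42.1% of the H3.1 level in WT, at 179.9 CPM per kb. It had 149, 137 and 157 CPM in *se-1*, 167, 139.7 and 165 CPM in *cbp20* and 142, 163 and 175 CPM in *cbp80*, against 135, 129 and 127 CPM in WT. All mutant libraries exceeded the WT libraries, by log2 fold changes of 0.19, 0.28 and 0.30 for *se-1*, *cbp20* and *cbp80* (adjusted p = 0.0402, 0.0163 and 0.00406 from edgeR). The *se-1* call was lost without any of *se-1* replicates 1 and 3 or WT replicates 1, 2 and 3, and the *cbp20* call without any of *cbp20* replicates 1 and 3 or WT replicates 2 and 3. *AT5G10390* had 29.3, 30.7 and 31.4 CPM in *se-1*, 33.4, 31.3 and 28.4 CPM in *cbp20* and 30.2, 29.5 and 27.9 CPM in *cbp80*, against 24.6, 27.6 and 25.8 CPM in WT. It rose in *se-1* (log2 fold change 0.23, adjusted p = 0.0173 from edgeR) and in *cbp20* (0.26, adjusted p = 0.0273), and in *cbp80* its 0.17 did not pass the test although the libraries did not overlap. The *se-1* call was lost without *se-1* replicate 3 or WT replicate 1, the *cbp20* call without *cbp20* replicate 1 or 2 or WT replicate 1 or 3, and both with DESeq2 or with libraries scaled by size only. Its neighbour *AT5G10400* passed the test in *cbp80*, at 0.29 (adjusted p = 0.00198 from edgeR), and *AT3G27360*, the least abundant H3.1 gene, was called in no mutant, with log2 fold changes of -0.23, -0.02 and -0.13 in *se-1*, *cbp20* and *cbp80*.

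The H3.3 genes carry the same protein product as each other and leaned the other way. *AT5G10980* (chromosome 5, 3472405 to 3473570, minus strand, 2 introns) had 48.8, 49.9 and 55.8 CPM in *se-1*, 53.5, 54.7 and 56.8 CPM in *cbp20* and 52.3, 54.7 and 58.7 CPM in *cbp80*, against 66.2, 61.2 and 69.1 CPM in WT. Every mutant library lay below every WT library. The log2 fold change was -0.34 ± 0.07 (adjusted p = 0.00248) in *se-1*, -0.25 ± 0.06 (adjusted p = 0.0128) in *cbp20* and -0.24 ± 0.06 (adjusted p = 0.00986) in *cbp80*, from edgeR, and of these calls only that in *cbp20* was lost in 1 of 12 alternative fits, without *cbp20* replicate 1. *AT4G40040*, the most abundant H3.3 gene with 199.6 CPM per kb in WT, had 258, 274 and 262 CPM in *se-1*, 272, 299 and 285 CPM in *cbp20* and 291, 249.9 and 269.9 CPM in *cbp80*, against 289, 306 and 309 CPM in WT. It fell in *se-1* alone past the threshold, by 0.18 on the log2 scale (adjusted p = 0.0378 from edgeR), and this call was lost without *se-1* replicate 1 or 3 or WT replicate 2 or 3. *AT4G40030*, which lies next to it, was called in no mutant and stayed between -0.08 and 0.05.

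Added up per kb of exon, the H3 variants separated every mutant library from WT when set against each other. The H3.1 genes summed to 497, 441 and 527 CPM per kb in *se-1*, 577, 491 and 506 CPM per kb in *cbp20* and 502, 544 and 570.5 CPM per kb in *cbp80*, against 449, 427 and 406 CPM per kb in WT, and the H3.3 genes to 345, 354 and 359 CPM per kb in *se-1*, 369, 390.3 and 385 CPM per kb in *cbp20* and 375, 345 and 365 CPM per kb in *cbp80*, against 393, 394 and 416 CPM per kb in WT. The H3.3 sum was below WT in all 9 mutant libraries, and the H3.1 sum was above WT in all but 1 *se-1* library. The ratio of H3.1 to H3.3 was 1.44, 1.25 and 1.47 in *se-1*, 1.56, 1.26 and 1.31 in *cbp20* and 1.34, 1.58 and 1.56 in *cbp80*, against 1.14, 1.08 and 0.976 in WT, and all 9 mutant libraries had a higher ratio than all 3 WT libraries. For all replication-dependent over all replacement genes, the ratio was 2.81, 2.54 and 2.81 in *se-1*, 2.87, 2.56 and 2.84 in *cbp20* and 2.72, 2.82 and 3.06 in *cbp80*, against 2.52, 2.4 and 2.38 in WT, again with every mutant library above WT, the lowest *se-1* library, 2.54, being just above the highest WT library, 2.52. Ratios within a library do not depend on its scaling. No test was run on these sums, because the members were chosen with results of these data known. For canonical H2A over H2A.Z, the ranges of each mutant overlapped that of WT.

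**Figure D4:**
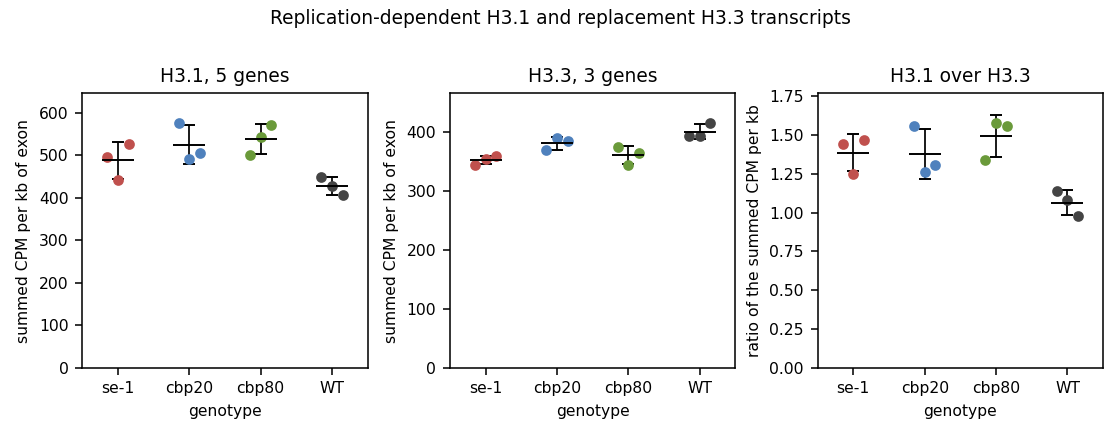
Summed CPM per kb of exon of the 5 H3.1 genes (left) and the 3 H3.3 genes (middle) and their ratio (right) in each library (points), with mean and SD of 3 libraries per genotype. The ratio lies at 1.25 to 1.58 in the mutant libraries and at 0.976 to 1.14 in WT.

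Each of the 4 canonical H2A genes was called in at least 1 mutant, some higher and some lower. Of all genes tested in the 3 comparisons, 9870 of 20312 were called in at least 1. No canonical H2A gene was called in *se-1*. In *cbp20* 25% were higher and 25% lower, against 10.2% and 9.48% of all tested genes. In *cbp80* 50% were higher and 50% lower, against 20.1% and 18.6%. *HTA2* (*AT4G27230*, chromosome 4, 13637236 to 13638449, minus strand) rose in both CBC mutants. It had 47, 45 and 42.1 CPM in *se-1*, 55.7, 53.1 and 50.9 CPM in *cbp20* and 59.3, 59.6 and 58.4 CPM in *cbp80*, against 43.4, 39.4 and 35.8 CPM in WT. The log2 fold change was 0.59 ± 0.07 (adjusted p = 1.28e-05) in *cbp80* and 0.43 ± 0.07 (adjusted p = 0.000938) in *cbp20*, from edgeR, and 0.19 in *se-1*, which did not pass the test (adjusted p = 0.0785). *HTA10* (*AT1G51060*), the most abundant canonical H2A gene, fell in the same 2 mutants. It had 77.8, 66 and 72.5 CPM in *se-1*, 72.1, 69.1 and 66.5 CPM in *cbp20* and 67.5, 69.8 and 66.8 CPM in *cbp80*, against 83.8, 86.3 and 73.9 CPM in WT. Its log2 fold change was -0.23 in *cbp20* and -0.25 in *cbp80* (adjusted p = 0.0308 and 0.00714 from edgeR), and the *cbp20* call was lost without any of the 3 *cbp20* libraries or WT replicates 1 and 2. *HTA1* (*AT5G54640*) fell in *cbp80* to 18.4 ± 1.98 CPM, against 23.7 ± 2.33 CPM in WT (SD, n = 3), a log2 fold change of -0.36 ± 0.09 (adjusted p = 0.00698) from edgeR.

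*HTA13* (*AT3G20670*, chromosome 3, 7229390 to 7230146, plus strand) had the largest fold change of all members and the widest spread. It had 26.8, 31.8 and 29.6 CPM in *se-1*, 31.2, 15.3 and 79.3 CPM in *cbp20* and 36.4, 46.2 and 74.9 CPM in *cbp80*, against 24.5, 18.2 and 28.5 CPM in WT. The *cbp80* libraries all exceeded WT, with a log2 fold change of 1.16 ± 0.21 (adjusted p = 0.000571) from edgeR, and without *cbp80* replicate 3 it was 0.81 (adjusted p = 0.000977). By edgeR in *cbp20*, with libraries from 15.3 to 79.3 CPM, the log2 fold change of 0.80 did not pass the test (adjusted p = 0.182). In edgeR it was -0.01 without *cbp20* replicate 3 (adjusted p = 0.978) and 1.20 without *cbp20* replicate 2 (adjusted p = 0.01), so that single libraries decide this value. The H4 genes *AT3G45930* and *AT3G46320* were also highest in replicate 3 and lowest in replicate 2 among the *cbp20* libraries, at 68.9 and 41.6 CPM for *AT3G45930*, a pattern chosen after its values were seen. No other canonical H2A gene followed that order in *cbp20*. In WT, replicate 2 was likewise the lowest for *HTA13*, *AT3G45930* and *AT3G46320*, at 18.2, 38 and 32.3 CPM. In *cbp80*, replicate 3 was the highest for all of them, but replicate 1 the lowest. In *se-1*, *HTA13* was highest in replicate 2. Whether replicate numbers stand for shared batches was not tested.

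**Figure D5:**
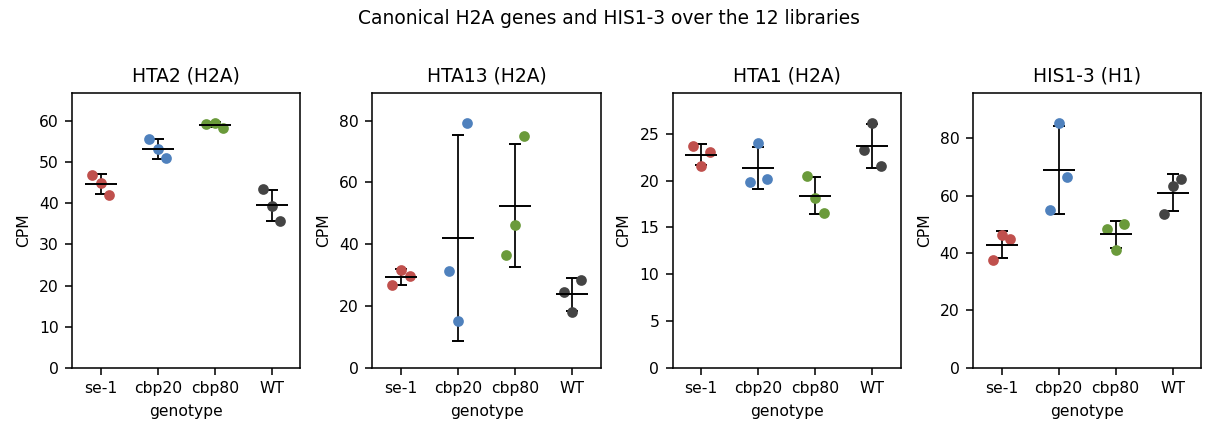
CPM in each library (points) of the canonical H2A genes *HTA2*, *HTA13* and *HTA1* and of the linker histone gene *HIS1-3*, with mean and SD of 3 libraries per genotype. *HTA2* stands at 58.4 to 59.6 CPM in *cbp80* and at 35.8 to 43.4 CPM in WT, and *HTA13* spreads from 15.3 to 79.3 CPM within *cbp20*.

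Among the H2B genes, *AT2G28720* (chromosome 2, 12326808 to 12327808, plus strand, intronless) had the largest fall of any member in each mutant. It had 71.7, 81.4 and 84.1 CPM in *se-1*, 81.1, 91.3 and 95.5 CPM in *cbp20* and 58.1, 50.8 and 70.4 CPM in *cbp80*, against 124, 112 and 119 CPM in WT. No mutant library reached the lowest WT library. The log2 fold change was -0.57 ± 0.07 (adjusted p = 4.96e-05) in *se-1*, -0.41 ± 0.07 (adjusted p = 0.00101) in *cbp20* and -0.98 ± 0.09 (adjusted p = 1.51e-06) in *cbp80*, from edgeR, and these calls held in each of 12 alternative fits. In *cbp80* its mean was 59.8 CPM, against 118 CPM in WT. The other H2B genes moved less. *HTB4* (*AT5G59910*) had 275, 248 and 281 CPM in *se-1*, 261, 241 and 255 CPM in *cbp20* and 274, 281 and 277 CPM in *cbp80*, against 240.3, 233 and 217 CPM in WT. It rose by 0.28 on the log2 scale in *cbp80* and by 0.23 in *se-1* (adjusted p = 0.0018 and 0.0234 from edgeR), the *se-1* call being lost without *se-1* replicate 1 or 3 or WT replicate 2 or 3. *HTB11* was called higher in *se-1* and *cbp80* (0.22 and 0.18), *HTB2* higher in *cbp80* (0.18) and *HTB1* lower in *se-1* (-0.22), with adjusted p between 0.0126 and 0.0447 from edgeR, and each of these calls was lost in 3 to 7 of 12 alternative fits. *HTB9* was called in no mutant. The H2B sum overlapped between every mutant and WT, at 669, 625 and 709.7 CPM per kb in *se-1*, 692, 652 and 706 CPM per kb in *cbp20* and 665, 643 and 725 CPM per kb in *cbp80*, against 683, 643 and 658 CPM per kb in WT.

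To set a riser beside a faller, the 150 bases before the start of *AT1G09200* and *AT2G28720* are printed with octamer, hexamer and TATAAA (or TTTATA, its reverse) in capitals, on the strand of the gene:
AT1G09200 (H3.1), chr1:2972335-2972484, minus strand: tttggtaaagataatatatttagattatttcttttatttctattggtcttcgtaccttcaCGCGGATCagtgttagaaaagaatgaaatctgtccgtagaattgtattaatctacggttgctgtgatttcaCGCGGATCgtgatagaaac
AT2G28720 (H2B), chr2:12326658-12326807, plus strand: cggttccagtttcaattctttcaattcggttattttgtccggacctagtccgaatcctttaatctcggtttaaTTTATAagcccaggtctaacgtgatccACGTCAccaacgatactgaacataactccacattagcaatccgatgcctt
*AT1G09200* has the octamer at 2 places and no other motif of the search in this stretch, and *AT2G28720* has the letters TTTATA and the hexamer but no octamer. The pair was picked by its changes, and other members do not follow it. All 7 H2B genes had the hexamer, among them *HTB2*, *HTB4* and *HTB11*, each called higher in at least 1 mutant. The H4 gene *AT1G07820*, which rose in each mutant, had the hexamer and no octamer. Among replication-dependent genes, 5 of 7 with the octamer rose and 1 fell (*HTA10*) in *cbp80*, against 6 risers and 3 fallers in 16 tested genes without it. In *cbp20* the counts were 2 higher and 1 lower of 7, against 3 and 1 of 16, and in *se-1* 2 and 0 of 7, against 4 and 3 of 16. The shares higher in *se-1*, *cbp20* and *cbp80* were 28.6%, 28.6% and 71.4% with the octamer and 25%, 18.8% and 37.5% without it. Of all tested genes, 17.6%, 10.2% and 20.1% were higher. The shares lower were 0%, 14.3% and 14.3% with and 18.8%, 6.25% and 18.8% without it, against 16.2%, 9.48% and 18.6% of all genes. The median log2 fold change was 0.18, 0.24 and 0.30 in *se-1*, *cbp20* and *cbp80* with the octamer, and -0.01, 0.07 and 0.15 without it. These counts are descriptions without a test, and *HTA10*, which was lower, has 2 octamers. The octamer was in 3 of 5 H3.1 genes and in 0 of 7 H2B genes, so that octamer and variant are mixed in this split. Their separate parts were not tested.

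Of the 8 genes of the other H2A variants, 2 were lower in *se-1*, none was called in *cbp20*, and 2 were higher and 3 lower in *cbp80*. Of all tested genes, 17.6% were higher and 16.2% lower in *se-1*, 10.2% and 9.48% in *cbp20*, and 20.1% and 18.6% in *cbp80*. The share of the 8 called in *cbp80* was thus above that of all genes, a description without a test. Their log2 fold changes were small, between -0.31 and 0.31. H2A.X is the form phosphorylated at DNA breaks, and *HTA3* (*AT1G54690*) had 14.7, 16.3 and 14.1 CPM in *se-1*, 16.3, 16.4 and 16.8 CPM in *cbp20* and 16, 15.6 and 15.4 CPM in *cbp80*, against 19.2, 18.2 and 19 CPM in WT. All 9 mutant libraries were below WT, and the test was passed in *se-1* (log2 fold change -0.31, adjusted p = 0.0104) and *cbp80* (-0.25, adjusted p = 0.014), but not in *cbp20* (-0.19), by edgeR. Its partner *HTA5* (*AT1G08880*) had 61, 60.7 and 60.3 CPM in *se-1*, 63.4, 56 and 58.9 CPM in *cbp20* and 50.1, 55.4 and 53.9 CPM in *cbp80*, against 60.5, 61 and 60.9 CPM in WT. It passed the test in *cbp80* alone, with a log2 fold change of -0.19 ± 0.06 (adjusted p = 0.0184) from edgeR, a call that was lost without *cbp80* replicate 1, and that of *HTA3* was lost in *se-1* without *se-1* replicate 3 and in *cbp80* with DESeq2.

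H2A.W is the variant of heterochromatin, and its genes diverged. *HTA7* (*AT5G27670*) had 46.3, 43.6 and 48.1 CPM in *se-1*, 49.8, 48.9 and 45.4 CPM in *cbp20* and 44.5, 45.4 and 47 CPM in *cbp80*, against 54.9, 51 and 52.9 CPM in WT. It was below WT in every mutant library and passed the test in *se-1* (-0.20, adjusted p = 0.0263) and *cbp80* (-0.21, adjusted p = 0.0116), by edgeR, although the *se-1* call was lost without *se-1* replicate 1 or 2 or WT replicate 1 or 3. *HTA6* (*AT5G59870*), the H2A.W gene with an octamer, had 34, 27.3 and 32.4 CPM in *se-1*, 34.2, 31.4 and 28.6 CPM in *cbp20* and 34.6, 36.3 and 30.9 CPM in *cbp80*, against 30.1, 28.3 and 24.2 CPM in WT. It rose in *cbp80* by 0.31 ± 0.09 (adjusted p = 0.011) from edgeR, and the call was lost without *cbp80* replicate 2. *HTA12* was called in no mutant.

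H2A.Z marks the first nucleosomes of many genes, and 84.8% of its level per kb in WT came from *HTA9* (*AT1G52740*). *HTA9* had 136, 141 and 144 CPM in *se-1*, 142, 137 and 134 CPM in *cbp20* and 144, 157 and 148 CPM in *cbp80*, against 141, 126 and 122 CPM in WT. Only the *cbp80* libraries were all above WT, with a log2 fold change of 0.21 ± 0.06 (adjusted p = 0.0194) from edgeR, lost without *cbp80* replicate 2 or WT replicate 2 or 3 and with libraries scaled by size only. *HTA8* and *HTA11* passed the test in no mutant and had log2 fold changes between -0.08 and 0.13.

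Linker histone H1 is mostly made from *AT1G06760* and *AT2G30620*, which stood at 119.9 and 126 CPM per kb in WT and were called in no mutant. *HIS1-3* (*AT2G18050*, chromosome 2, 7845923 to 7847031, plus strand) is known as the stress-inducible H1 gene. It had 37.6, 46.3 and 45.1 CPM in *se-1*, 54.9, 85.5 and 66.6 CPM in *cbp20* and 48.3, 41.1 and 50.2 CPM in *cbp80*, against 53.8, 63.3 and 66 CPM in WT. It fell in *se-1* with a log2 fold change of -0.50 ± 0.09 (adjusted p = 0.00113), and in *cbp80* with -0.38 ± 0.09 (adjusted p = 0.00294), from edgeR, while the *cbp20* libraries ran from 54.9 to 85.5 CPM on both sides of WT and the log2 fold change of 0.18 did not pass the test (adjusted p = 0.366).

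Whether the mutants differed from each other was tested directly in 1 fit of the 12 libraries, where WT cancels. Called were 2 members between *se-1* and *cbp20*, 4 between *se-1* and *cbp80* and 2 between *cbp80* and *cbp20*, of 37 tested, against 13.6%, 11.4% and 10.2% of all tested genes. In no comparison was the share of members above that of all genes. *HTA2* was lower in *se-1* than in *cbp20* (log2 fold change -0.25, adjusted p = 0.0203) and *cbp80* (-0.40, adjusted p = 0.000788), by edgeR. *HIS1-3* was lower than in *cbp20* both in *se-1* (-0.68, adjusted p = 0.0022) and in *cbp80* (-0.56, adjusted p = 0.00995), by the same edgeR test. *AT2G28720* was lower in *cbp80* than in *cbp20*, by 0.57 on the log2 scale (edgeR, adjusted p = 0.0011), and higher in *se-1* than in *cbp80*, with a log2 fold change of 0.40 (adjusted p = 0.0134). *HTA1* and *HTA5* were higher in *se-1* than in *cbp80* (0.31 and 0.19, adjusted p = 0.0452 and 0.038 from edgeR). The *HTA2* call between *se-1* and *cbp20* was lost without *se-1* replicate 2 or 3 or *cbp20* replicate 1, that of *AT2G28720* between *se-1* and *cbp80* without *se-1* replicate 3 or *cbp80* replicate 2, and that of *HIS1-3* between *cbp80* and *cbp20* without replicate 2 of either. Those of *HTA1* and *HTA5* were lost without any 1 of the *se-1* libraries, without *cbp80* replicate 3, and without *cbp80* replicate 2 for *HTA1* and replicate 1 for *HTA5*. For the other members, including every H4, H3.1 and H3.3 gene, no difference between mutants passed the test, which does not show that they responded alike.

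Split by introns, the members gave these counts. Of the 16 tested members with no intron in any transcript, 5 rose and 3 fell in *se-1*, 3 rose and 1 fell in *cbp20*, and 8 rose and 2 fell in *cbp80*. Of the 21 with an intron, 1 rose and 5 fell in *se-1*, 2 rose and 2 fell in *cbp20*, and 5 rose and 7 fell in *cbp80*. The shares higher in *se-1*, *cbp20* and *cbp80* were 31.2%, 18.8% and 50% without and 4.76%, 9.52% and 23.8% with introns, against 17.6%, 10.2% and 20.1% of all genes. The shares lower were 18.8%, 6.25% and 12.5% without and 23.8%, 9.52% and 33.3% with introns, against 16.2%, 9.48% and 18.6% of all genes, and several of these are close to the background. Since every intronless member is replication-dependent and every replacement gene has introns, intron number and class cannot be told apart in these genes, apart from the 7 replication-dependent genes with introns, which include the H4 gene *AT1G07820* and all 4 canonical H2A genes.

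Replication-dependent histone genes are transcribed mainly in dividing cells, so genes of S phase and of mitosis were read beside the members. Of 14 S-phase genes, 2 rose in *se-1*, 4 rose in *cbp20* and 6 rose in *cbp80*, and none fell. These are 14.3%, 28.6% and 42.9% of the list, against 17.6%, 10.2% and 20.1% of all tested genes called higher, so that the share in *se-1* was not above that of all genes. All 14 had a positive log2 fold change in *cbp20* and in *cbp80*, with medians of 0.20 and 0.21, against 8 of 14 and a median of 0.03 in *se-1*. *TSO2*, a ribonucleotide reductase gene, was higher in each mutant, at 70.5 CPM in *se-1*, 73.9 CPM in *cbp20* and 79.4 CPM in *cbp80*, against 54.9 CPM in WT. Of 11 genes of G2 and M phase, 3, 5 and 4 rose in *se-1*, *cbp20* and *cbp80* and none fell, which is 27.3%, 45.5% and 36.4% against the same shares of all genes, with medians of 0.17, 0.24 and 0.23. The sum of these 11 ran from 157 to 175 CPM in *se-1*, 166 to 184 CPM in *cbp20* and 158 to 183 CPM in *cbp80*, against 141 to 149.6 CPM in WT. *KNOLLE*, the syntaxin of the cell plate, and *MAP65-3*, a microtubule crosslinker of the phragmoplast, rose in all 3 mutants, by 0.20, 0.21 and 0.18 for *KNOLLE* and 0.24, 0.42 and 0.39 for *MAP65-3*. Summed CPM of the S-phase genes ran from 396 to 429 in *se-1*, 436 to 479 in *cbp20* and 443 to 470.0 in *cbp80*, against 386 to 402 in WT. These lists were read under TMM scaling only. The part of the share of dividing cells in the histone changes was not tested.

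Of 19 genes for histone chaperones and exchange complexes, 3 rose and 1 fell in *se-1*, 3 rose and 0 fell in *cbp20*, and 5 rose and 1 fell in *cbp80*. The shares called higher, 15.8%, 15.8% and 26.3%, were near those of all tested genes, 17.6%, 10.2% and 20.1%. The same 3 genes rose in each mutant, when 7.97% of all genes were higher in all 3. *FAS1*, the large subunit of CAF-1, which deposits H3.1, had log2 fold changes of 0.22, 0.31 and 0.26 in *se-1*, *cbp20* and *cbp80*. *ASF1B*, a chaperone that hands H3 and H4 to CAF-1 and HIRA, had 0.44, 0.47 and 0.56, and *PIE1*, the ATPase of the SWR1 complex, had 0.34, 0.28 and 0.30. *HIRA*, the H3.3 chaperone, averaged 17.4 CPM in *se-1*, 16.8 CPM in *cbp20* and 18.4 CPM in *cbp80*, against 18.4 CPM in WT, and passed the test in none of them.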

How the data were processed

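Poly(A) RNA of whole seedlings was sequenced as read pairs of 150 bases in 12 libraries, 3 per genotype. The authors filtered rRNA and tRNA with Bowtie2 2.1.0, aligned with TopHat2 2.1.1 and deposited raw counts per gene from featureCounts 1.5.0-p3, run without strand on TAIR10 genes. Pairs with several alignments were not counted. Their DESeq2 1.14.1 tables of fold changes and p-values were not used.

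Counts were tested with edgeR 4.0.16 in R 4.3.3 (quasi-likelihood test, TMM, a minimum of 10 counts in 3 or more fitted libraries, Benjamini-Hochberg over all tested genes, threshold 0.05). Each mutant was fitted with WT on 6 libraries, and mutants were compared in 1 fit of 12. The code was tested on simulated data. Alternatives were library size only, RLE size factors, no filter, DESeq2 1.42.0, 1 fit of all libraries (or of the 2 mutants), a replicate block and each library left out. A count of 0 allows up to 3 counts, and intervals of counting error were not needed at these depths (18565569 to 27068656 counts). Same-numbered libraries had correlated deviations of -0.0666 to 0.148, so numbers were not used as pairs.

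Per-library values were given for called members with the largest log2 fold change per variant and mutant, others by counts and ranges. Members and gene lists were chosen with earlier results of these data known. Sequences and introns are from RefSeq (TAIR10.1), where 32532 of 32548 genes had the deposited start and end, and proteins were translated only to count differing residues.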

Additional observations from a re-analysis of the deposited data

Results flagged for a closer look

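Histone members whose level differed between 2 mutants, by the edgeR contrast of the mutants themselves, came from 5 genes. Of 37 tested members, 2 were called between *se-1* and *cbp20*, 4 between *se-1* and *cbp80* and 2 between *cbp80* and *cbp20*. Of all tested genes, 13.6%, 11.4% and 10.2% were called, so that no share of members was above that of all genes. *HTA2* was lower in *se-1* than in *cbp20* (log2 fold change -0.25) and than in *cbp80* (-0.40). *HIS1-3* was lower in *se-1* than in *cbp20* (-0.68) and lower in *cbp80* than in *cbp20* (-0.56). *AT2G28720* was higher in *se-1* than in *cbp80* (0.40) and lower in *cbp80* than in *cbp20* (-0.57). *HTA1* (0.31) and *HTA5* (0.19) were higher in *se-1* than in *cbp80*. Of these 8 calls, those of *HTA2* between *se-1* and *cbp80*, *HIS1-3* between *se-1* and *cbp20* and *AT2G28720* between *cbp80* and *cbp20* held in each of 12 alternative fits.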

How the results depend on the processing

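With library size only in place of TMM, 1 member was higher in *se-1* (6 with TMM) and 14 were lower in *cbp80* (9 with TMM), and the median log2 fold change of the replacement variants was -0.17 in *se-1* and -0.16 in *cbp80* (-0.08 in both with TMM). That scaling put the median of all tested genes at -0.09, -0.05 and -0.08 for *se-1*, *cbp20* and *cbp80*. With H3.3 and H2A.Z only, the replacement median in *se-1* was -0.01. A replicate block gave 11 members higher in *cbp20* in place of 5, adding *AT3G46320*, *AT5G59690*, *AT5G10400*, *HTA13*, *HTA6* and *HTB2*. The cause was not tested, and the labels do not say whether same-numbered libraries are pairs. Fitted on the 6 libraries of the mutants compared, 7 members differed between *se-1* and *cbp80* in place of 4. DESeq2 called 5 members higher and 6 lower in *se-1*, 4 and 3 in *cbp20*, and 11 and 8 in *cbp80*.

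With 1 library left out, the members called higher ranged from 1 to 9 in *se-1*, 3 to 7 in *cbp20* and 10 to 12 in *cbp80*, and those called lower from 5 to 8 in *se-1*, 1 to 3 in *cbp20* and 9 to 11 in *cbp80*. The replication-dependent median ranged from 0.01 to 0.14 in *se-1*, 0.07 to 0.17 in *cbp20* and 0.13 to 0.23 in *cbp80*, and the replacement median from -0.11 to -0.04 in *se-1*, -0.03 to 0.04 in *cbp20* and -0.13 to -0.07 in *cbp80*. Between mutants, 1 to 2 members differed between *se-1* and *cbp20*, 1 to 3 between *se-1* and *cbp80* and 1 to 3 between *cbp80* and *cbp20*.

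No called value changed its sign under these alternatives. Calls present in each of 12 alternatives were 4 of 14 in *se-1*, 4 of 8 in *cbp20* and 15 of 22 in *cbp80*. Low depth limits no tested member, but overlapping exons lower several levels.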

Other observations

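Of 11 other histone genes outside the 38 members, 6 passed the filter on low counts, and 2 of these were lower in all 3 mutants by edgeR. Of all genes tested in the 3 comparisons, 6.6% were lower in all 3. Both genes were weakly expressed, with the lowest library at 1.29 CPM for *HTA4* and 0.554 CPM for *HTR11*. *HTA4* (an H2A gene) averaged 2.04 CPM in *se-1*, 3.31 CPM in *cbp20* and 1.43 CPM in *cbp80*, against 5.43 CPM in WT, with log2 fold changes of -1.40, -0.73 and -1.91. *HTR11* (an H3 gene) averaged 0.767 CPM in *se-1*, 1.96 CPM in *cbp20* and 1.3 CPM in *cbp80*, against 3.12 CPM in WT, with log2 fold changes of -2.02, -0.68 and -1.25. The H2B gene *AT3G53650* was higher in *cbp80* (0.57). *HTR12*, which encodes the centromeric H3 variant, averaged 2.42 CPM in *se-1*, 2.83 CPM in *cbp20* and 3.26 CPM in *cbp80*, against 2.92 CPM in WT, and passed the test in none of them.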
